A study of Mus musculus with 2 samples.

Results

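Zbtb16 encodes PLZF, a transcription factor with an N-terminal BTB domain and C-terminal zinc fingers, and its gene body held 7 of the 364 regions that the study listed for a difference in 5-hydroxymethylcytosine (5-hmC) between imiquimod-treated and control mouse epidermis. The members are the rows of the deposited table that were assigned to Zbtb16 and to no other gene. No further row named Zbtb16 beside another gene. All 7 lay on chromosome 9 within the gene, and all 7 were lower in the imiquimod library. The authors had put on the list only regions with about 50 tags and a 2-fold difference, so the members were selected on the ratio of the averages and on the tag number of these same libraries. Direction and size of each difference are given as a description without a test.

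The 5-hmC mark is made from 5-methylcytosine by TET enzymes, lies mostly at CpG sites and is found largely within genes and enhancers. PLZF binds DNA through its zinc fingers and represses transcription by recruiting corepressors and histone deacetylases through its BTB domain. In mice it directs the development of innate-like lymphocytes such as natural killer T cells, is needed for the self-renewal of spermatogonial stem cells, and patterns the limb skeleton. In human cells the gene is strongly induced by glucocorticoids.

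The assay was hMeDIP-seq, in which an antibody against 5-hmC enriches sheared DNA that carries the mark before sequencing. One group was epidermis of C57BL/6J mice, 6 weeks old, that had 3.125 mg of imiquimod, a Toll-like receptor 7 agonist, put on the shaved back and the right ear each day for 6 days as Aldara cream. The other was epidermis of such mice treated with Vaseline. Each group had 1 library, the number of mice behind it is not stated in the sources used here, and the table calls both libraries wild type. Vaseline is not the base of the imiquimod cream, so the effects of the drug and of its base cannot be told apart. The epidermis was taken from whole skin and not sorted, so a change in the mix of cells and a change of 5-hmC within cells cannot be told apart either. The tissue could not be checked against marker genes, because the table holds only the listed regions. With 1 library per group there is no spread between replicates and no test between conditions. The intervals below are nominal 95% intervals of a ratio of estimated tag numbers and cover counting error only. They take no account of the selection of the regions on this same ratio. Where their bounds lie is therefore no support for a difference. The depth of the libraries is unknown.

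By the authors' numbering, the merged 5-hmC regions of the genome ran to 166528. The 364 listed regions are 0.219% of that number, and the 271 listed as lower are 0.163%. The 7 Zbtb16 regions are numbered within a run of 89 and make up 7.87% of it. This run starts and ends at listed regions, which raises its share above that of the genome. Counted likewise, the share was 6.12% in Ptpn14, 4.84% in Sipa1l3, 42.9% in 3110082I17Rik and 75% in Psmd3 and Csf3, genes with 3 listed regions. The share thus does not set Zbtb16 apart. The other 82 numbers of the Zbtb16 run are not in the list, and their values were not analysed here. Zbtb16 was the gene with the most listed regions. Among 399 assigned genes, 369 had 1 region, 23 had 2, 6 had 3 and 0 had 4 to 6.

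The 7 regions are numbered here from 5′ to 3′ along the gene, which is read from the minus strand of chromosome 9 and is 181649 bp long from the start to the end of transcript Zbtb16-201. Region 1 is the one over coding sequence. It spans chr9:48832318-48833998 (mm10) and takes in 899 bp of intron 1, 89 bp of 5′ untranslated sequence and the first 692 bp of coding sequence, all 781 exonic bases being in exon 2. It thus holds the start codon of PLZF and the bases that encode the BTB domain. The 300 bases below run from that start codon (GRCm38, chr9:48832711-48833010, minus strand, 5′ to 3′, from the GENCODE transcript) and are shown because they are the protein-coding DNA under the longest region of the whole list. Exon 3 (chr9:48743464-48743561, minus strand), which is under no listed region and parts the introns of regions 3 and 4, is shown for contrast. Capitals mark CpG sites, the main place of the mark.
Zbtb16 exon 2, coding start: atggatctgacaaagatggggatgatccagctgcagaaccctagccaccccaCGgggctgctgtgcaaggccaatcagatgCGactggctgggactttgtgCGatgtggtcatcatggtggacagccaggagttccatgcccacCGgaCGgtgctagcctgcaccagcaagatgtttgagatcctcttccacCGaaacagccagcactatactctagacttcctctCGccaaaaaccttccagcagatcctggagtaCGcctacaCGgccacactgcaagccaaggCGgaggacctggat
Zbtb16 exon 3: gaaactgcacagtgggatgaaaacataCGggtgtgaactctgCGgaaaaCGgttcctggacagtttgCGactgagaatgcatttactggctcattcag

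The 300 bases hold 10 CpG sites and the 98 bases of exon 3 hold 4. The coding sequence under region 1 was poor in CpG sites for a region on this list. It had 20 CpG sites in 692 bp, or 2.89 per 100 bp, and the coding part of exon 2 outside the region had 2.78 per 100 bp. In 110 other lower regions with at least 100 bp of coding sequence, the median was 4.48 per 100 bp and the range 1.76 to 13.9, so that Zbtb16 ranked 96th of 111 from the highest. Its GC share of 56.6% lay below the median of 59.7% in the others. Within the gene, exon 1, which is untranslated and lies outside every listed region, had 8.23 CpG sites per 100 bp. Of the other exons outside, exon 5 had 5.85 and exon 3 had 4.08, while exon 4 had 2.30, exon 6 had 2.38 and exon 7 had 1.27, the latter 3 below the 2.89 under region 1. No CpG island was assigned to any of the 7 regions, against 27 of 264 (10.2%) other lower regions. In only 7 regions a count of 0 is near that share and does not set Zbtb16 apart. The sequence of the intronic regions was not analysed here.

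**Figure D1:**
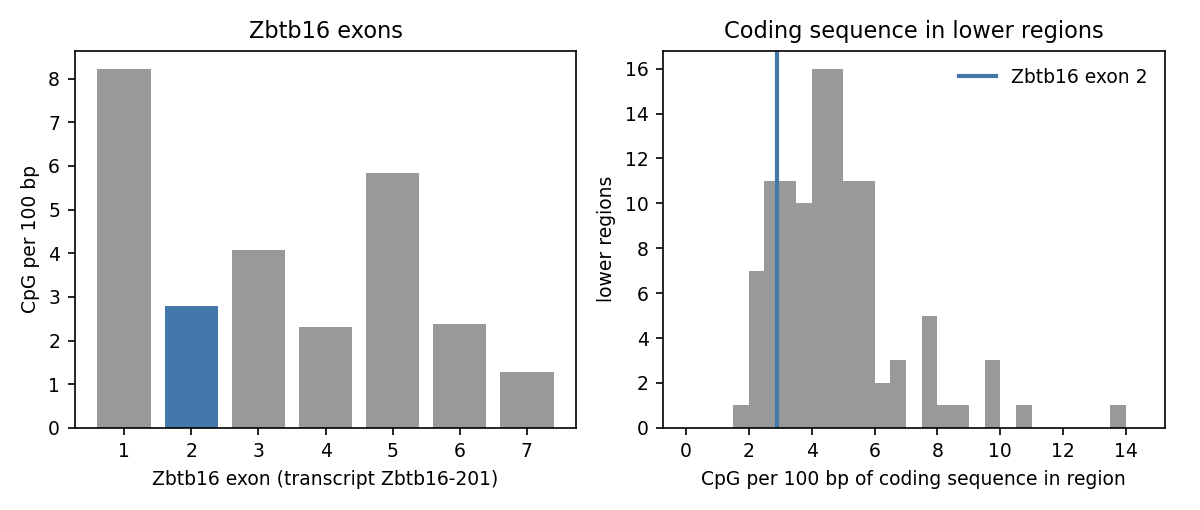
Left, CpG sites per 100 bp in each exon of transcript Zbtb16-201, with exon 2, which region 1 overlaps, in blue. Right, a histogram of CpG sites per 100 bp of coding sequence within 111 lower regions, where the blue line marks the Zbtb16 value of 2.89, below the median of 4.48 of the others.

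Region 1 was also the region with the most tags in the gene. Its average pileup, the mean number of tags over the small windows of a region, was 19.4 under Vaseline against 9.67 under imiquimod, 2.01-fold lower (95% interval 1.50 to 2.69). This corresponds to 145.6 and 72.5 tags, the second highest Vaseline tag number among the 271 lower regions. The highest single-window pileup reached 51 under Vaseline and 25 under imiquimod. At 2.63 times the average in Vaseline and 2.58 times in imiquimod, this peak rose further above its region's average than that of any other Zbtb16 region. The Vaseline peak of 51 was the fourth highest of the lower regions, although the region's average ranked 129th. It was the only Zbtb16 region to which the authors assigned a promoter, with its middle 2787 bp from the start of Zbtb16-201, and exon 1 itself was outside it.

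Regions 2 and 3 lay in intron 2, which spans 88181 bp or 48.5% of the gene. Region 2 (chr9:48824398-48825759) is 5984 bp from exon 2 and, at 1361 bp, the second longest of all 364 listed regions. Its average pileup was 15.5 under Vaseline and 7.58 under imiquimod, 2.04-fold lower (1.42 to 2.97). Its highest pileup was 24 and 12, which is 1.55 and 1.58 times the averages. This is near the medians of the other lower regions, 1.63 in Vaseline and 1.65 in imiquimod. Region 3 (chr9:48798541-48799623) lies deep in the intron, 32120 bp from the nearest exon. It had the highest average of the 7 in both libraries, 22.4 under Vaseline and 11.1 under imiquimod, 2.01-fold lower (1.43 to 2.83). Its highest pileup differed less, at 37 and 24, which is 1.54-fold.

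Region 4 was the single listed region of intron 3 (chr9:48725773-48726736) and carried the sparsest signal of the 7. The average pileup was 12.5 in Vaseline, 270th of the 271 lower regions, and 4.83 in imiquimod epidermis. The ratio of 2.59-fold (1.53 to 4.48) was the greatest in the gene, and it rests on 53.7 and 20.8 tags. The highest pileup of 26 and 9 differed by 2.89-fold.

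Regions 5, 6 and 7 lay in intron 4, which spans 51957 bp. Region 5 (chr9:48711345-48711996) averaged 18.5 under Vaseline and 7.60 under imiquimod, 2.43-fold lower (1.47 to 4.23), and its highest pileup of 25 and 13 differed by 1.92-fold. Regions 6 and 7 are neighbours in the authors' numbering with a gap of 458 bp between them, 36001 bp further downstream. Region 6 (chr9:48674700-48675344) had averages of 18.7 and 9.20, 2.03-fold lower (1.28 to 3.46). Region 7 (chr9:48673265-48674242) had averages of 15.3 and 7.26, 2.11-fold lower (1.35 to 3.30). Their highest pileups were 29 and 16 in region 6 and 26 and 14 in region 7, differences under 2-fold. Introns 5 and 6 and exons 5 to 7, the 3′ end of the gene that encodes zinc fingers, held no listed region.

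**Figure D2:**
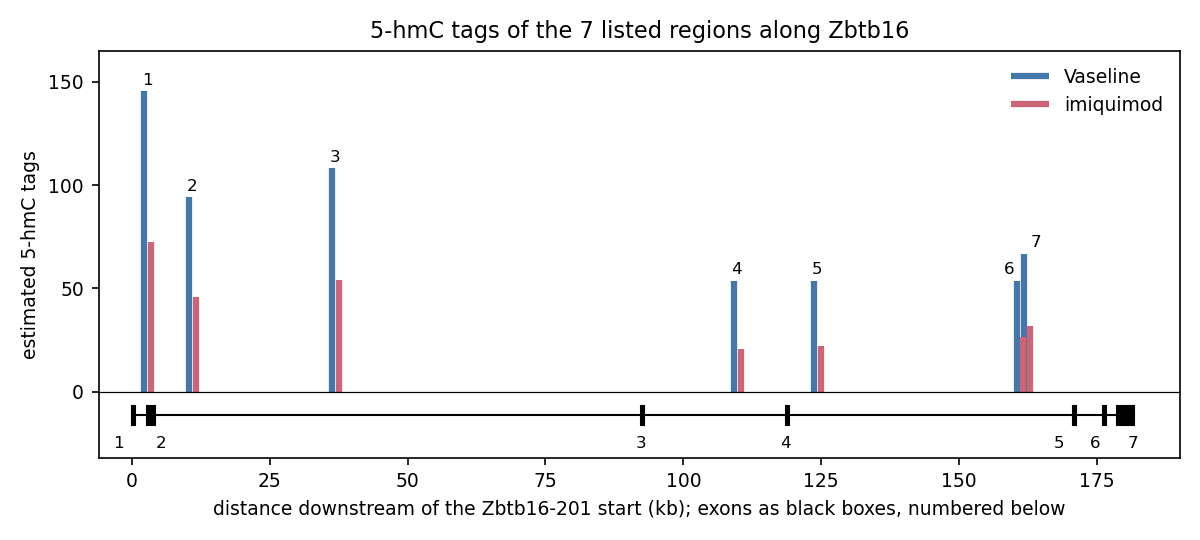
Estimated 5-hmC tags (vertical axis) of the 7 listed regions at their distance from the Zbtb16-201 start in kb, in the Vaseline (blue) and imiquimod (red) library, with bars shifted slightly apart and exons as black boxes drawn at no less than 0.5 kb. Region 1 at exon 2 has 145.6 and 72.5 tags, regions 2 and 3 stand in intron 2, and regions 4 to 7 each have fewer than 70 Vaseline tags.

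Across the 7 regions, the averages ran from 12.5 to 22.4 in Vaseline, with a median of 18.5, and from 4.83 to 11.1 in imiquimod epidermis, with a median of 7.60. The lowest Vaseline average was above the highest imiquimod average, although these are different regions. Listing at 2-fold itself sets the averages apart, so this is no support for the difference. Over all 271 lower regions the lowest Vaseline average was 12.4 and the highest imiquimod average 13.7. The 3 regions nearest the start had the most tags, with 145.6, 94.0 and 108.4 in Vaseline, and the 4 further ones had 53.7 to 66.8. Tag numbers grow with region length, and by average region 2 (15.5 in Vaseline) was below regions 5 (18.5) and 6 (18.7). Those first 3 regions were 2.01-fold to 2.04-fold lower, just inside the 2-fold limit of the list, and so was region 6 in intron 4 at 2.03-fold. The 2 greatest ratios came in the middle of the gene, in regions 4 and 5. Their intervals overlap those of all the others, and differences among the 7 ratios were not tested.

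Summed over the 7 regions, which cover 7358 bp or 4.05% of the gene, there were 576.1 tags in Vaseline and 273.4 under imiquimod, 2.11-fold lower (1.82 to 2.45). The other 264 lower regions summed to a 2.24-fold difference (2.18 to 2.31). The median ratio was 2.04-fold for Zbtb16 and 2.19-fold for the others, and the intervals of the sums overlap. Singly the Zbtb16 regions ranked between 37th and 262nd of the 271 by fold. In the highest pileup, 3 of 7 reached 2-fold, with a median of 1.92-fold, against 198 of 264 (75.0%) of the others and a median of 2.23-fold. The highest pileup draws on the reads that also gave the averages, so it is no separate support.

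**Figure D3:**
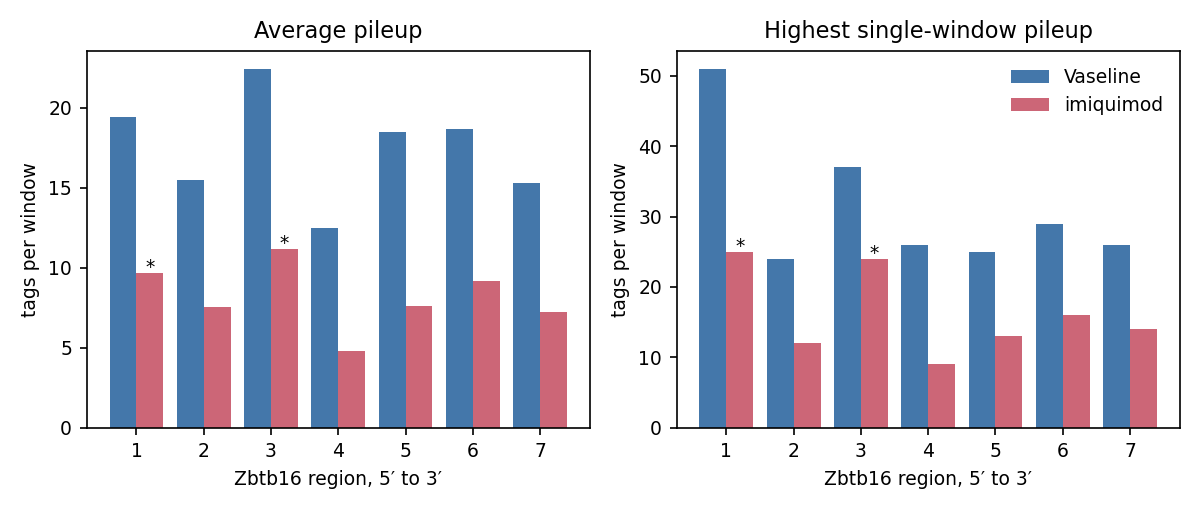
Average pileup (left) and highest single-window pileup (right), in tags per window, of Zbtb16 regions 1 to 7 in the Vaseline (blue) and imiquimod (red) library, 1 library each. An asterisk marks an enriched interval called in the imiquimod library. Every red bar is below its blue partner, and in the right panel region 3 has the closest pair, 37 and 24.

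The authors' interval calls separated the regions. Peak calling had found an enriched interval in 7 of 7 Zbtb16 regions for Vaseline, against 99.3% of all lower regions. For imiquimod it had found one in 2 of 7, regions 1 and 3, against 5.9% of all lower regions. Regions 1 and 3 had imiquimod averages of 9.67 and 11.1 and peaks of 25 and 24. The other 5 had averages of 4.83 to 9.20 and peaks of 9 to 16, so the called regions were those with the higher remaining signal by both measures. At exon 2 and in the deep intron 2 region, then, 5-hmC was lower in the imiquimod library and still passed the authors' peak calling. Regions 1 and 3 were also the 2 with over 100 Vaseline tags. Of the 10 lower regions with that many tags, 3.69% of the lower regions, 5 had an imiquimod interval, and of the 261 with fewer tags 11 did (4.21%).

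Zbtb16 regions were long. Their lengths ran from 644 to 1680 bp with a median of 977 bp, against a median of 687.5 bp in the other lower regions. At 900 bp or more were 5 of the 7, and 44 of the 271 lower regions (16.2%). The limit on tags favours long regions, and all 7 share a gene, so no test of this difference was made. The long regions were not all dense in signal. Regions 2 and 7, at 1361 and 977 bp, had Vaseline averages ranked 241st and 246th of the 271.

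**Figure D4:**
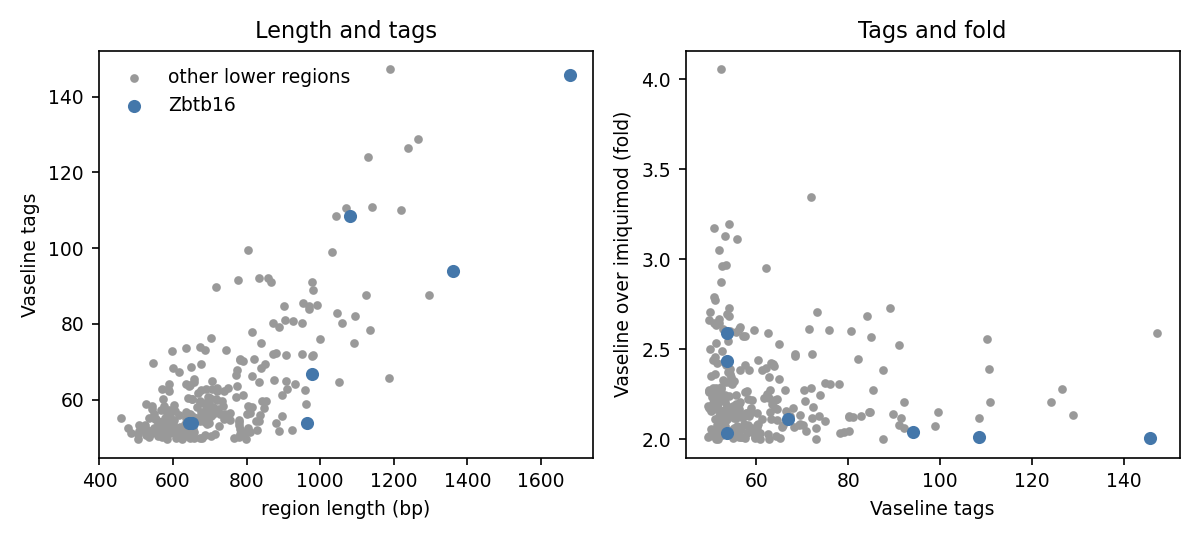
Vaseline tags against region length in bp (left) and the ratio of Vaseline to imiquimod averages against Vaseline tags (right) for the 271 lower regions, with the 7 Zbtb16 regions in blue. Region 1 is the rightmost point on the left at 1680 bp, and on the right the 3 Zbtb16 regions with the most tags lie just above 2-fold.

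The gene body was dense in merged 5-hmC regions of either kind, listed or not. The run of 89 numbers over 160733 bp gives 5.54 numbered regions per 10 kb, against 0.757 per 10 kb over chromosome 9 between its first and last listed region, a 7.31-fold difference. These numbers count intervals called in any of 4 libraries, of which 2 are not samples of this series, and the numbering takes no account of the treatment contrast, although the ends of each run are listed regions. Between neighbouring listed Zbtb16 regions the density ran from 3.82 to 7.88 per 10 kb. The highest of these values spans regions 6 and 7 alone, which have no other region between them. Outside the gene the density was lower, at 1.06 per 10 kb on the side of region 7 up to the next listed region and 0.709 per 10 kb on the side of region 1. Other genes with 3 listed regions also had dense runs. Per 10 kb, there were 6.45 in Ptpn14, 4.07 in Sipa1l3, 3.05 in 3110082I17Rik and 10.6 in Psmd3 and Csf3. The density was thus not particular to Zbtb16. The longest stretch within Zbtb16, between regions 3 and 4, covers 71805 bp and holds 44 numbered regions that are not on the list. It includes exon 3. Whether 5-hmC differed there by less than 2-fold or only fell short on tags was not analysed here.

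**Figure D5:**
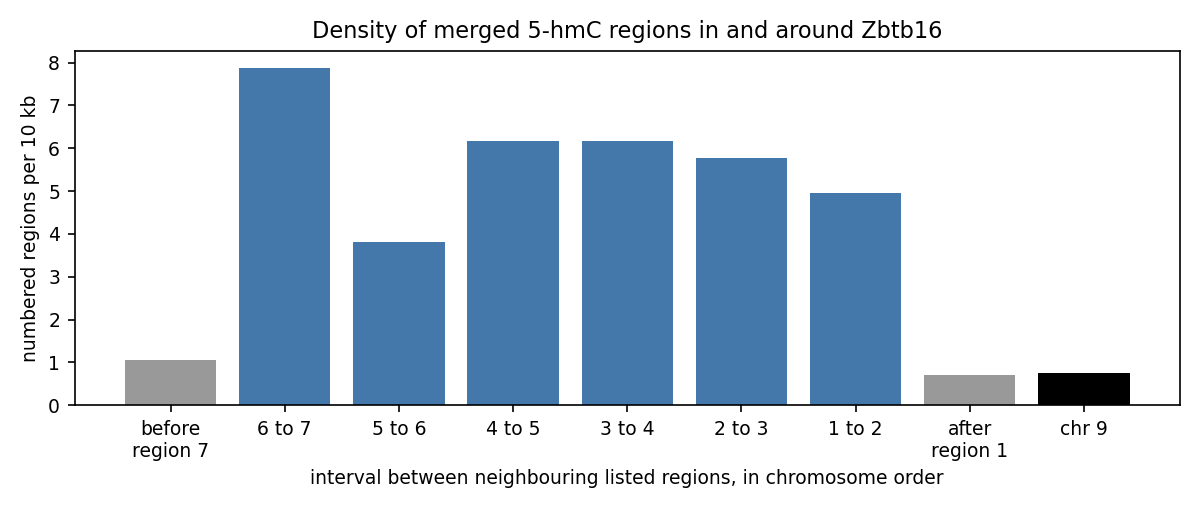
Numbered 5-hmC regions per 10 kb between neighbouring listed regions, in chromosome order: blue bars are intervals between Zbtb16 regions, grey bars reach from the gene to the next listed region on either side, and the black bar is chromosome 9. Blue bars run from 3.82 to 7.88 and the grey ones are 1.06 and 0.709.

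No listed region other than the 7 lay within 2 Mb of the gene. Listed regions were sparse, with 21 on all of chromosome 9, the 7 included, so an empty stretch around a gene is common. The nearest on the side of the 3′ end was 2732872 bp away, upstream of the smooth muscle gene Tagln and within Sidt2, and was 2.09-fold lower. The nearest on the other side was 10716287 bp away in the lysosomal enzyme gene Hexa and was 2.05-fold higher. None of the protein-coding genes next to Zbtb16 had a listed region, among them the methyltransferase gene Nnmt on 1 side and the serotonin receptor genes Htr3a and Htr3b on the other. Of all protein-coding genes, 1.35% had a lower and 0.233% a higher region, so neighbours without one do not set Zbtb16 apart. A gene without a listed region may still have differed by less than the limits of the list.

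The genes most like Zbtb16 by number and direction of listed regions over these libraries each had 3 regions, with 3 of 3 lower. Ptpn14, whose phosphatase acts in Hippo signalling, had a median ratio of 2.16-fold and, at 6.45 numbered regions per 10 kb, a density like that of Zbtb16. The regions of Sipa1l3, a gene of epithelial polarity, had a median of 2.20-fold and a density of 4.07 per 10 kb. Both genes had their 3 regions to themselves, as Zbtb16 had its 7. In contrast, 3 regions were shared by the proteasome gene Psmd3 and the granulocyte colony-stimulating factor gene Csf3, with a median of 2.11-fold, and those of 3110082I17Rik, with a median of 2.31-fold, were all shared with other genes. In none of these was an interval called in the imiquimod library. Of all lower regions 5.9% had one, so this does not set these genes apart from Zbtb16. Of 1124 protein-coding genes as long as Zbtb16 or longer, 20 (1.78%) had a lower region, Zbtb16 included, and 16 (1.42%) a higher one, and no other gene among them had more than 3 listed regions. Of all protein-coding genes 1.35% had a lower and 0.233% a higher region.

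Within the BTB zinc finger family, Zbtb16 was the gene with listed regions. The list of BTB zinc finger proteins has 45 genes and holds the germinal centre repressor gene Bcl6 and the T cell lineage gene Zbtb7b. Of the 45, 1 had a lower region and 0 a higher one, and that 1 was Zbtb16. Zbtb16 is on the list as the gene studied here, and without it 0 had a lower region. Of all protein-coding genes, 1.35% had a lower and 0.233% a higher region, so this count does not set the family apart.

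In the list of 24 genes whose proteins are known to work with PLZF, the members reported here are Rara and Fhl2, and no count over the list is given. Rara encodes the retinoic acid receptor alpha, which is fused to PLZF in a rare human promyelocytic leukaemia. Its region over coding exon (chr11:98969607-98970747) had averages of 21.8 and 9.86, 2.21-fold lower (1.58 to 3.17), and kept an imiquimod interval like regions 1 and 3 of Zbtb16. Fhl2, the gene of a LIM domain cofactor, went the other way. Its region 8341 bp upstream of the start averaged 6.67 under Vaseline and 14.7 under imiquimod, 2.21-fold higher (1.30 to 3.73).

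Among 20 glucocorticoid-induced genes, 1 had a lower region and 0 a higher one, where the shares of all protein-coding genes were 1.35% and 0.233%. That gene was the clock gene Per1, whose region over coding exon, shared with Vamp2, was 2.02-fold lower (1.24 to 3.44). Fkbp5 and Tsc22d3, which respond to glucocorticoids in many cell types, had no listed region. Of 19 genes of the mouse lymphocytes that carry PLZF, 1 had a lower region and 0 a higher one. The 1 was Zbtb16 itself, which this list holds by its definition. The members without a region include Gata3 and Il23r. Lists of this size hold few regions by their background, so counts of 0 or 1 say little about them.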

How the data were processed

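Genomic DNA of 1 imiquimod and 1 Vaseline epidermis library was immunoprecipitated with a 5-hmC antibody and sequenced, per the labels' protocols. CASAVA, MACS2 and mm10 are named in the submitters' processing notes. The sources used here do not state the aligner, duplicate treatment, input control or scaling. Intervals were merged by the authors, per the file headers, from 4 libraries into numbered regions. The other 2 libraries (6 columns) were not used. The deposited columns WT-control and WT-treated were matched to Vaseline and imiquimod by the words control and treated, on which every direction rests.

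The deposited signal is an average and a highest tag pileup (coverage) per region. The authors' deposited tag score equals the larger average times length divided by 224, and their deposited log2 ratio is that of the averages, in all 364 regions (tolerance 1e-06). Tags of each library were computed likewise. Intervals are Clopper-Pearson intervals at 95% of the imiquimod share of both rounded tag numbers. Tags carry no molecular identifiers and may repeat a molecule. Coordinates are as deposited, where starts may count from 0. Exons are those of the basic GENCODE M21 set (GRCm38). The deposited distances run from the region's middle to the Zbtb16-201 start in 7 of 7 regions. No genome sequence was used, so CpG content was computed in exons from GENCODE transcripts.

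Members, lists and named genes were chosen with earlier results of these data known. The rule named Zbtb16, the 5 genes with the most listed regions with ties, listed regions within 2 Mb, and members of 4 lists. Results for 2 genes named by the rule are not reported here. Alternatives were the highest pileup, equal sums, a pseudocount of 10, 100 tags, 3-fold and leaving out the longest region. Software was Python 3.11.15 with SciPy 1.17.1, numpy 2.4.6 and pandas 2.3.3.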

Additional observations from a re-analysis of the deposited data

How the results depend on the processing

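No direction turned under any alternative run, but none of them could turn a region listed at 2-fold except the highest pileup. The 7 Zbtb16 regions at 2-fold became 3 by the highest pileup and 0 with a pseudocount of 10. They became 0 with equal sums of the averages over all listed regions (a factor of 1.40 on imiquimod). With imiquimod values raised by 1.2, a choice made after seeing the data, 2 of the 7 stayed at 2-fold. A minimum of 100 tags kept only 2 of the 7 regions, and these 2 were still at 2-fold. How the libraries were scaled is not stated in the sources used here, so the 2-fold size of these differences rests on it. The log2 ratio of the summed tags, -1.08 as deposited, was -0.59 with equal sums, -0.59 with the pseudocount and -0.81 with the factor of 1.2. A minimum of 3-fold left 0 regions and no value. Of the single regions, region 1 alone shifted by more than the mean distance from its log2 ratio to the bounds of its interval, 0.42, with log2 ratios of -0.52 under equal sums and -0.58 under the pseudocount. Genes with 3 or more listed regions numbered 7, and 3 when only regions assigned to the gene alone were counted, Zbtb16, Ptpn14 and Sipa1l3. CpG content in the central part of each region was not run, as no genome sequence was used. No paired analysis was possible because each group had 1 library, and none could be left out.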
